A study of Mus musculus with 9 samples.

Results

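Schlafen genes encode a mouse protein family whose members share a core domain related to RNA-binding and RNA-cutting proteins. The short proteins, Slfn1 and Slfn2, consist of little beyond that core, the intermediate proteins, Slfn3 and Slfn4, carry an additional linker region, and the long proteins, Slfn5, Slfn8 and Slfn9, end in a part that resembles a helicase. Schlafen transcripts are known from mouse lymphocytes and macrophages, where several of them are induced by type I interferon, and their levels are known to change when T cells leave quiescence. Slfn1 was described as a brake on the growth of mouse T-lineage cells, and mice with a mutant Slfn2 have T cells that do not keep quiescence and die on activation. Mouse Slfn2 has also been described as binding transfer RNAs and protecting them from cleavage in activated T cells.

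The family was listed by gene symbol as Slfn1, Slfn2, Slfn3, Slfn4, Slfn5, Slfn8 and Slfn9, 7 genes of 47937 in the count table, and it was picked because Slfn1 and Slfn2 fall with activation and return with TEPP-46. All 7 were found in the table, and 6 of them were among the 12536 genes with enough counts to be tested, the exception being Slfn4. Because the values of Slfn1 and Slfn2 chose the family, their levels and fold changes are given as a description without a test. The other members came in by their symbols, and for them adjusted p-values from the fit over all genes are given.

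RNA was measured in 9 libraries from CD4+ T cells of C57BL/6 mouse spleens, purified with magnetic beads for CD4 and for a surface marker of naive T cells. The TEPP-46 cells (Th0_TEPP, n = 3) were incubated for 15 min with TEPP-46, a small molecule that activates the glycolytic enzyme pyruvate kinase M2, and then activated with plate-bound antibodies against CD3 and CD28. The labels give TEPP-46 at 50 to 100 µM without saying which library received how much. The control cells (Th0_Ctrl, n = 3) received the solvent DMSO in place of TEPP-46 and the same activation, and the resting cells (Resting, n = 3) were not activated. Libraries are numbered 1, 4 and 5 in each group, and no label states that they came from separate animals, so a p-value here reflects the spread among the libraries, part or all of which may be technical. The duration of activation and the handling of the resting cells after purification are not stated in the labels. The study asked how activating pyruvate kinase M2 changes T cell activation.

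Total counts ran from 2397304 to 5030643 per library, so that 3 counts of a gene correspond to between 0.603 and 1.26 CPM (counts scaled to a library total of 1000000). T cell markers were present in every library, with Lck highest and summed levels of 8920 to 11100 CPM in TEPP-46 cells, 5220 to 6910 CPM in control cells and 6460 to 9960 CPM in resting cells. The libraries of TEPP-46 cells stood further apart than the others, with a median correlation of log2 CPM with their own group of 0.857 to 0.905, against 0.974 to 0.98 in control cells and 0.938 to 0.958 in resting cells. Resting replicate 1 was the one at 0.938, and TEPP-46 replicate 4 had the lowest total.

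All 7 members lie within 264 kb of chromosome 11 in the mouse build GRCm38, at chr11:82951349-83215154. In order along the chromosome these are Slfn5, Slfn9, Slfn8, Slfn2, Slfn1, Slfn4 and Slfn3, with Slfn8 and Slfn9 on the minus strand and the others on the plus strand. Slfn1 (ENSMUSG00000078763.2) spans 83116849 to 83122670 and Slfn2 (ENSMUSG00000072620.3) spans 83065112 to 83070678. Slfn8 (ENSMUSG00000035208.15) spans 83002158 to 83020810, and Slfn9 (ENSMUSG00000069793.11) spans 82978390 to 82991830. Slfn5 (ENSMUSG00000054404.12) spans 82951349 to 82964840, Slfn4 (ENSMUSG00000000204.15) 83175186 to 83190216, and Slfn3 (ENSMUSG00000018986.9) 83191330 to 83215154. The coding part is 1011 bases long in Slfn1 and 1134 in Slfn2, 1920 in Slfn3 and 1806 in Slfn4, and 2652 in Slfn5 and 2730 in both Slfn8 and Slfn9.

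The start regions are shown because the members share short stretches there, and because Slfn8 and Slfn9, which behaved differently in these libraries, have similar ones. The sequences below are RefSeq promoters on GRCm38.p6, from 250 bases before to 50 bases after an annotated start, written 5′ to 3′ on the strand of the gene. A promoter was found for 7 of 7 members, 8 in all because Slfn8 has an additional start. In the short genes Slfn1 (chr11:83116570-83116869, plus strand) and Slfn2 (chr11:83064862-83065161, plus strand), capitals mark the letters ACTTCCTG, a site type known for ETS transcription factors. These letters were noticed in the members' promoters and then counted.
Slfn1: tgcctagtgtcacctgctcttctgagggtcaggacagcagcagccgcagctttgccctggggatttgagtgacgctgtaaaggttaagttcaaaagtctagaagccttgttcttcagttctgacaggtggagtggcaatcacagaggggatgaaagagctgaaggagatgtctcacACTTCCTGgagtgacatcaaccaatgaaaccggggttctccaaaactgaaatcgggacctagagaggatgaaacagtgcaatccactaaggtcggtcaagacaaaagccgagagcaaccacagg
Slfn2: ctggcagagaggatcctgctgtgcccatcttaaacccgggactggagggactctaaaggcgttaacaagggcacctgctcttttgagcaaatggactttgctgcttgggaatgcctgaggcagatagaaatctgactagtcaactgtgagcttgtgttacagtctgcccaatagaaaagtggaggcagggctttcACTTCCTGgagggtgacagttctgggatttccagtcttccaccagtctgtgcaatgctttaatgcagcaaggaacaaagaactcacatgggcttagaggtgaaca

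The letters stood at position -74 relative to the start in Slfn1 and at -55 in Slfn2, within a shared run of 12 bases, cacttcctggag. The intermediate genes also held them, Slfn4 at -73 and Slfn3 at -42 with a further copy on the other strand at -60. In Slfn4 the shared run with Slfn1 was 15 bases long, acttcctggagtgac. The windows of 30 bases around them are at chr11:83175103-83175132 in Slfn4 and chr11:83191278-83191307 in Slfn3, both on the plus strand. Of all 32851 promoters in the RefSeq table, 3.33% held ACTTCCTG on either strand.
Slfn4: ttccggttatACTTCCTGgagtgacgaaat
Slfn3: ggatgacagaACTTCCTGggggagggactc

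The long genes held other letters. In Slfn8 (chr11:83020761-83021060, minus strand) and Slfn9 (chr11:82991781-82992080, minus strand), capitals mark a match on the opposite strand to the core of the interferon-stimulated response element, which was searched as GAAA, any 2 bases and GAAA, at -48 in Slfn8 and at -45 in Slfn9. The same letters of Slfn8 lie at -136 of its additional start. Slfn5 matched on its own strand at -155, in the window chr11:82951937-82951966. The core was present in 3.44% of all promoters, searched on both strands.
Slfn8: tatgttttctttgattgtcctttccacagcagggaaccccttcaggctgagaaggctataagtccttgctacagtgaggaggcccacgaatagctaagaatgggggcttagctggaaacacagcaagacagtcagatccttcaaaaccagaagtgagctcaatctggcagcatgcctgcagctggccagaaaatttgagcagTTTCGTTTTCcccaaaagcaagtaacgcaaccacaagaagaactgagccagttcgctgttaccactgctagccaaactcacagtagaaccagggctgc
Slfn9: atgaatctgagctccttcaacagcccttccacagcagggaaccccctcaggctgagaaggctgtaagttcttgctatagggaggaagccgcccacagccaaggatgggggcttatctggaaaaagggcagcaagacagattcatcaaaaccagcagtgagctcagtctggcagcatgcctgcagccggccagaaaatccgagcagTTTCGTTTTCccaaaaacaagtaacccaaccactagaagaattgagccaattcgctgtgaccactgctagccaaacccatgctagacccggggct
Slfn5: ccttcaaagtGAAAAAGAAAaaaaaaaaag

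The promoters of Slfn8 and Slfn9 were 83.4% identical over 295 aligned columns, with a longest shared run of 20 bases. A further 3 motifs were searched on both strands: TTCNNNGAA, the core of the gamma-activated site (8.3% of all promoters), TGTTTAC, a site type of FOXO factors (3.65%), and TGANTCA, that of AP-1 (7.81%). None of the members held either of the first pair, and TGANTCA occurred at -34 of Slfn4, with no overlap with its ACTTCCTG. A match describes letters in this window and is neither a measured binding site nor a cause.

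The short members, Slfn1 and Slfn2, were the most abundant of the family, low in control cells and several times higher in both TEPP-46 and resting cells. Slfn1 stood at 442, 354.2 and 526.1 CPM in TEPP-46 cells (replicates 1, 4 and 5), at 69.42, 64.33 and 55.21 CPM in control cells and at 501.7, 414.3 and 400.7 CPM in resting cells. The control libraries lay together below all others, and the TEPP-46 and resting libraries overlapped. Its fitted fold change was 7-fold for TEPP-46 over control cells (log2 fold change 2.81 ± 0.23 SE), -2.80 ± 0.23 on the log2 scale for control over resting cells, and 0.01 ± 0.21 for TEPP-46 over resting cells.

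For Slfn2, the CPM values were 321.8, 238.6 and 311.2 in TEPP-46 cells, 73.34, 66.73 and 47.14 in control cells, and 499.1, 299.5 and 278.4 in resting cells. Again the 3 control libraries lay below all others, and resting replicate 1 lay well above the other resting and the TEPP-46 libraries, which overlapped. The log2 fold change of Slfn2 was 2.22 ± 0.29 for TEPP-46 over control cells (4.66-fold), -2.52 ± 0.29 for control over resting cells and -0.31 ± 0.27 for TEPP-46 over resting cells. Without resting replicate 1 and TEPP-46 replicate 4, a setting added after the data were seen, TEPP-46 over resting was 0.24 for Slfn1 and 0.13 for Slfn2 on the log2 scale. A gene annotated antisense to Slfn2, Gm20234, was not analysed here, and without the strand of counting its reads could not be told from those of Slfn2.

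**Figure D1:**
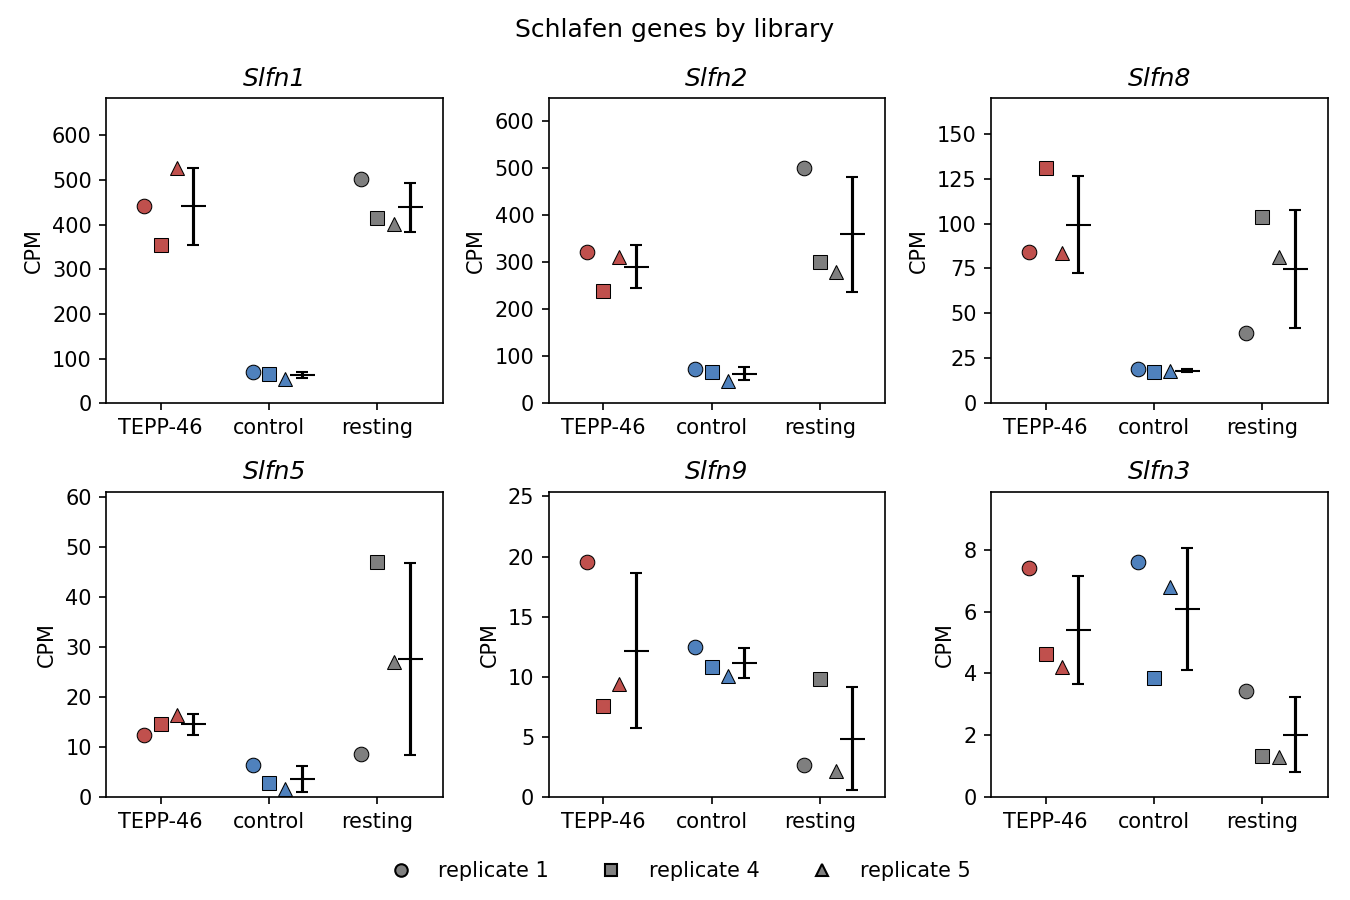
Levels of the 6 members tested, in CPM on a linear axis that starts at 0, with 1 point per library, symbols for the replicate number, and black bars for the mean and SD of 3 libraries. In Slfn1, Slfn2 and Slfn8 the control libraries lie together below all others, and in Slfn3 the resting libraries lie lowest.

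Slfn8, a long member with the helicase-like part, was higher in TEPP-46 than in control cells and lower in control than in resting cells. Its level was 84.16, 130.7 and 83.47 CPM in TEPP-46 cells, 19.13, 17.52 and 17.65 CPM in control cells and 39.23, 103.5 and 81.34 CPM in resting cells. The control libraries lay below all others and within 2 CPM of each other, and resting replicate 1 was the lowest of the resting libraries. In the fit over all genes (quasi-likelihood F test of edgeR, p adjusted by Benjamini-Hochberg), Slfn8 rose 5.48-fold in TEPP-46 over control cells (log2 fold change 2.45 ± 0.35, adjusted p = 0.0034). It fell by 2.04 ± 0.35 on the log2 scale in control over resting cells (adjusted p = 0.00239). Both calls held under each of the 19 alternative settings, with 2.21 to 2.57 for TEPP-46 over control and -2.35 to -1.74 for control over resting. For TEPP-46 over resting cells the log2 fold change was 0.41 ± 0.33 (95% interval -0.32 to 1.15, adjusted p = 0.468), and it was -0.14 without resting replicate 1 and TEPP-46 replicate 4.

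Slfn5, the other long member that was low in control cells, had 12.38, 14.7 and 16.5 CPM in TEPP-46 cells, 6.377, 2.88 and 1.512 CPM in control cells and 8.65, 47.01 and 27.04 CPM in resting cells. The control libraries lay below all others, and the resting libraries were spread widely, with replicate 1 lowest. Slfn5 fell by 2.92 ± 0.64 on the log2 scale in control over resting cells (edgeR adjusted p = 0.00751), a call kept under each of the 19 alternatives. For TEPP-46 over control cells its log2 fold change of 2.00 ± 0.64 missed the threshold (95% interval 0.58 to 3.43, adjusted p = 0.0574). It passed under 5 of 19 alternatives, with adjusted p = 0.016 by DESeq2, 0.0127 without a filter on low counts, 0.0252 without resting replicate 1, 0.043 without TEPP-46 replicate 1 and 0.0284 without resting replicate 1 and TEPP-46 replicate 4. Under the other 14 it did not, with adjusted p = 0.105 by limma-voom and up to 0.184 without control replicate 5. Leaving out single libraries gave values of 1.63 (without control replicate 5) to 2.69 (without control replicate 1). TEPP-46 over resting cells gave -0.92 ± 0.59 (95% interval -2.22 to 0.38, adjusted p = 0.354). The antisense gene Slfn5os overlaps Slfn5 and held 3, 2 and 17 counts summed over the TEPP-46, control and resting libraries.

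Slfn9, the long member closest in sequence to Slfn8, did not share its pattern. It stood at 19.53, 7.562 and 9.382 CPM in TEPP-46 cells, 12.51, 10.8 and 10.08 CPM in control cells and 2.615, 9.771 and 2.163 CPM in resting cells. The TEPP-46 libraries lay on both sides of the control libraries, and all control libraries lay just above the highest resting library. The log2 fold change was 0.14 ± 0.57 for TEPP-46 over control cells (95% interval -1.12 to 1.40, edgeR adjusted p = 0.883) and 1.22 ± 0.59 for control over resting cells (adjusted p = 0.139). The control-over-resting value was 2.20 with adjusted p = 0.0224 without resting replicate 4, and adjusted p = 0.0467 by limma-voom. Under the other 17 of 19 alternatives it did not pass, and it was 0.86 (edgeR adjusted p = 0.346) without resting replicate 5. TEPP-46 over resting cells gave 1.36 ± 0.59 (95% interval 0.04 to 2.67, adjusted p = 0.176).

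The coding parts of Slfn8 and Slfn9 were 92.7% identical, and 14.6% of the 50-base stretches of Slfn8 transcripts and 11.2% of those of Slfn9 also occur in transcripts of another Schlafen gene. For both the gene that shared most was the pseudogene Slfn10-ps, with 10.1% of the stretches of Slfn8 and 8.1% of those of Slfn9. Reads of these genes could be split, and their counts are uncertain. Counts of Slfn8 were 4.31 to 17.3 times those of Slfn9 in TEPP-46 libraries, 1.53 to 1.75 times in control libraries and 10.6 to 37.6 times in resting libraries.

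The intermediate members, Slfn3 and Slfn4, were rare in every group. Slfn3 had 7.426, 4.621 and 4.206 CPM in TEPP-46 cells, 7.604, 3.84 and 6.806 CPM in control cells and 3.42, 1.32 and 1.298 CPM in resting cells. The resting libraries lay below all others, and the TEPP-46 and control libraries overlapped. In control over resting cells Slfn3 rose 2.95-fold (log2 fold change 1.56 ± 0.54, edgeR adjusted p = 0.0486), in the direction opposite to Slfn1, Slfn2, Slfn5 and Slfn8. This call was lost under 8 of 19 alternatives, with adjusted p = 0.071 without a filter on low counts, 0.0536 with a filter at 1 CPM, 0.155 and 0.157 without resting replicates 4 and 5, 0.156, 0.0628 and 0.14 without control replicates 1, 4 and 5, and 0.0595 without TEPP-46 replicate 5.

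TEPP-46 over control cells gave -0.16 ± 0.51 for Slfn3 (95% interval -1.29 to 0.98, edgeR adjusted p = 0.855). TEPP-46 over resting cells gave 1.41 ± 0.55 (95% interval 0.20 to 2.61, adjusted p = 0.13), with adjusted p = 0.0387 when resting replicate 1 and TEPP-46 replicate 4 were left out. Slfn4, known from mouse macrophages, had 1, 0 and 0 counts in TEPP-46 cells, 0, 0 and 1 in control cells and 1, 6 and 0 in resting cells, too few for a test or a fold change. Slfn3 and Slfn4 shared 91% of their coding bases, and 7.39% and 8.15% of their 50-base stretches occur in another family transcript.

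**Figure D2:**
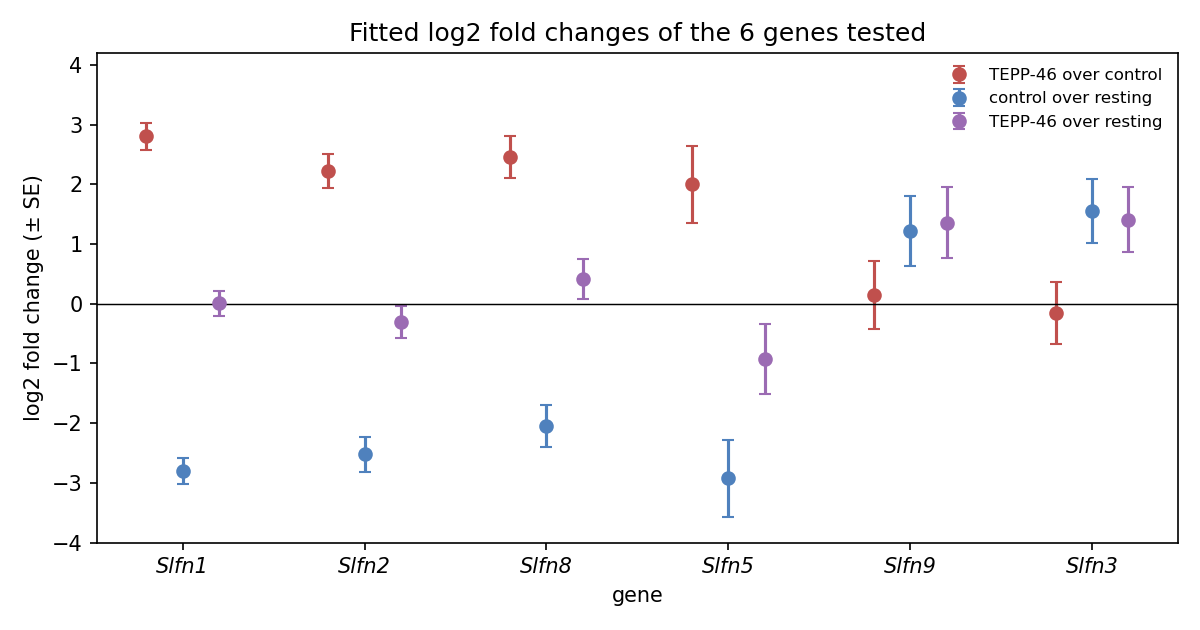
Fitted log2 fold changes with SE of the 6 members tested, for TEPP-46 over control, control over resting and TEPP-46 over resting cells, 3 libraries per group. Slfn1, Slfn2, Slfn8 and Slfn5 lie at 2.00 to 2.81 for TEPP-46 over control and at -2.92 to -2.04 for control over resting, while Slfn9 and Slfn3 lie near 0 and above 0.

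Among the 4 members tested other than Slfn1 and Slfn2, 1 was called higher and 0 lower in TEPP-46 over control cells, where 9.72% of all genes tested were called higher and 6.43% lower. In control over resting cells 1 was called higher and 2 lower, beside 15.5% and 15.8% of all genes. In TEPP-46 over resting cells 0 were called in either direction, beside 6.37% higher and 3.92% lower of all genes. At an unadjusted p under 0.05, 2 of the 4 were higher and 0 lower there, and DESeq2 and limma-voom called 0. Of the 4 members, 0 were lower in TEPP-46 over control cells at an unadjusted p under 0.05 as well, and by DESeq2 and limma-voom. Called in either direction were 16.2%, 31.2% and 10.3% of all genes in the 3 comparisons. By libraries that do not overlap, 2 of the 4 members lay above and 0 below in TEPP-46 over control cells, beside 19.7% and 20% of all genes. In control over resting cells 2 lay above and 2 below, beside 29.2% and 30%, and in TEPP-46 over resting cells 1 lay above and 0 below, beside 12.6% and 14.1%. The family was picked on these comparisons, so nothing is read from the counts. The split of all genes called in TEPP-46 over control cells, 1219 higher and 806 lower, was 922 and 1182 when libraries were scaled by their totals alone. The comparisons with control cells share the same 3 control libraries, so their values for a member are not independent.

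Ordered by level per kilobase of exon, Slfn1 averaged 236.4 ± 46.1 CPM per kb in TEPP-46 cells, 33.8 ± 3.9 in control cells and 235.5 ± 29.4 in resting cells (SD, n = 3 each). Slfn2 followed at 174.6 ± 27.2, 37.5 ± 8.2 and 215.7 ± 73.2 CPM per kb in TEPP-46, control and resting cells, a difference from Slfn1 within the spread in control and in resting cells. Slfn8 came next at 24.3 ± 6.6, 4.42 ± 0.22 and 18.3 ± 8.0 CPM per kb in the same groups. Slfn5 had 2.30 ± 0.33, 0.57 ± 0.40 and 4.36 ± 3.03 CPM per kb. Slfn9 had 2.04 ± 1.08, 1.87 ± 0.21 and 0.81 ± 0.72 CPM per kb, and Slfn3 had 1.59 ± 0.51, 1.78 ± 0.58 and 0.59 ± 0.36 CPM per kb. The libraries of these last 3 overlapped in TEPP-46 cells, and of their means that of Slfn5 was the lowest in control cells and the highest in resting cells.

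Summed over the family, the level was 750.4 to 950.8 CPM in TEPP-46 libraries, 138.6 to 188.4 CPM in control libraries and 790.9 to 1055 CPM in resting libraries. Slfn1 and Slfn2 together made up 79 to 88.1% of the family's counts in TEPP-46 cells, 73.8 to 78.9% in control cells and 81.4 to 94.9% in resting cells. Slfn9 made up 0.987 to 2.2%, 6.5 to 7.27% and 0.248 to 1.11% of the counts in the same order of groups. Slfn3 made up 0.442 to 0.837%, 2.31 to 4.91% and 0.151 to 0.324%. The shares of both rare genes were thus highest in control cells, where the abundant members were low. Slfn1 had 1.37 to 1.69 counts for each count of Slfn2 in TEPP-46 libraries, 0.946 to 1.17 in control libraries and 1.01 to 1.44 in resting libraries.

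**Figure D3:**
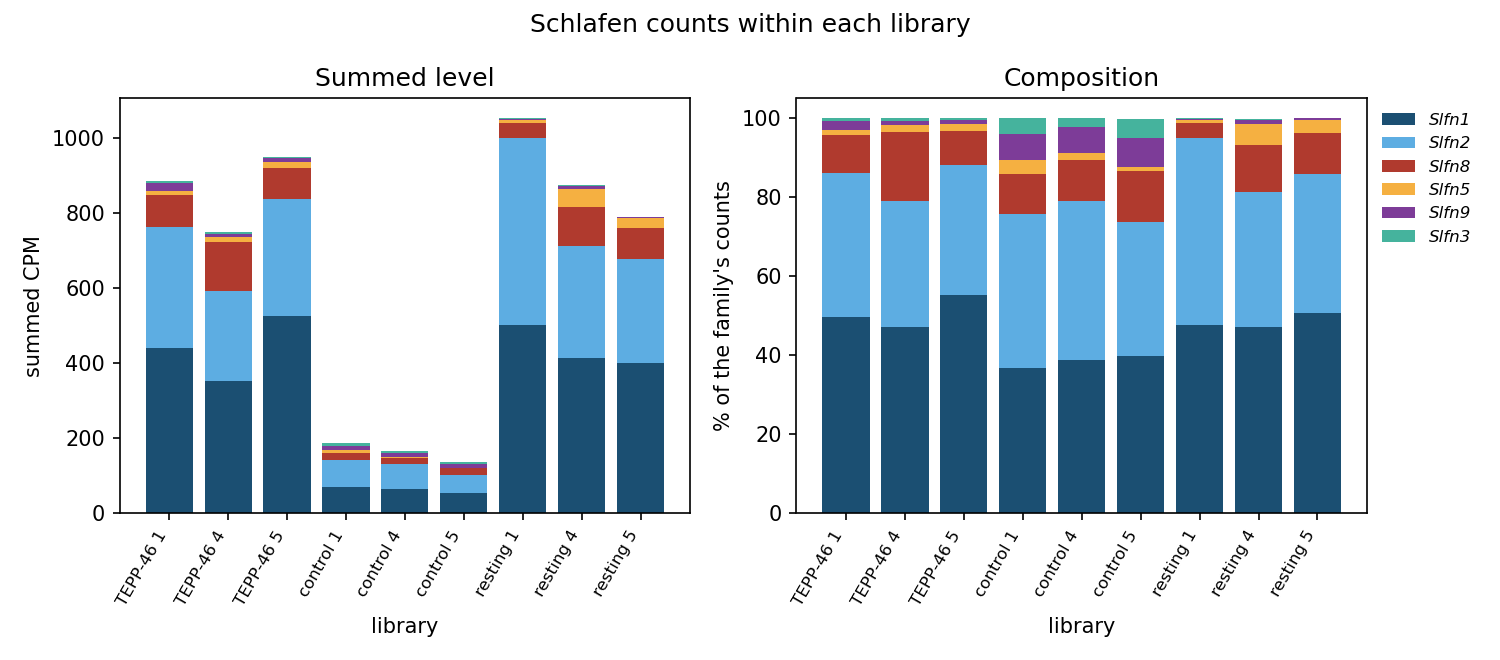
Summed CPM of the Schlafen members (left, linear axis from 0) and each member's percent of the family's counts (right) in the 9 libraries, without Slfn4, which had 9 counts in all. Control libraries reach 188.4 CPM at most, and the share of Slfn9 and Slfn3 is larger in them than in any other library.

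Position in the cluster did not sort the members by pattern. Slfn8, which was low in control cells, lies between Slfn9 and the pseudogene Slfn10-ps, which were not. Slfn10-ps had 43.45, 50 and 43.68 CPM in TEPP-46 cells, 38.02, 32.4 and 31.01 CPM in control cells and 14.68, 19.54 and 22.72 CPM in resting cells. All its control libraries lay above all resting libraries, and the TEPP-46 libraries lay above both. It rose in control over resting cells (log2 fold change 0.83 ± 0.24, edgeR adjusted p = 0.0251) and in TEPP-46 over resting cells (1.27 ± 0.24, adjusted p = 0.012), and was at 0.43 ± 0.24 in TEPP-46 over control cells (adjusted p = 0.224). The control-over-resting call was lost without resting replicate 1 (adjusted p = 0.0621) or 4 (0.0711) and without control replicate 1 (0.0936), 4 (0.0663) or 5 (0.0598), and the TEPP-46-over-resting call without resting replicate 4 (0.0523). They were also lost without a filter on low counts (control over resting, 0.0593) and with only the groups compared (TEPP-46 over resting, 0.0559). Since 19.7% of its 50-base stretches occur in another Schlafen transcript, its counts are uncertain as well. Slfn14, which lies beside the cluster, had 0, 0 and 3 counts summed over the TEPP-46, control and resting libraries, and Slfnl1 on chromosome 4 had 0, 0 and 1. A count of 0 allows a level of up to 3 counts, 0.603 to 1.26 CPM in a library, for counting error only.

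**Figure D4:**
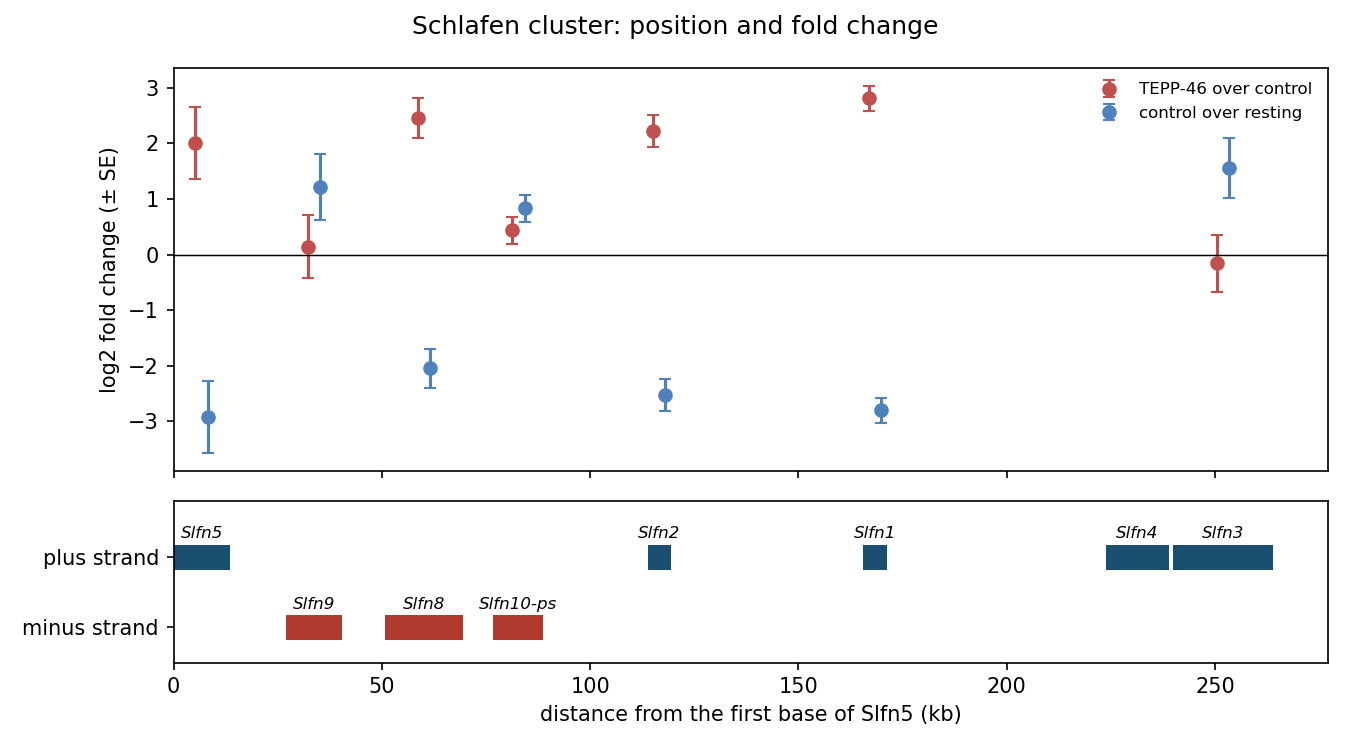
Map of the Schlafen cluster in kb from the first base of Slfn5, with genes on the plus and minus strand (lower panel) and the log2 fold change with SE at each gene tested (upper panel). Genes at about 2 or more for TEPP-46 over control alternate along the cluster with Slfn9 and Slfn10-ps, which lie at 0.14 and 0.43.

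The similarity of patterns was described as the root mean square difference of log2 CPM over the 9 libraries, after centring each gene on its own mean, among 10852 named genes. Of these, Slfn2 was the gene closest to Slfn1 (0.287) and Slfn1 the closest to Slfn2. The median gene lay at 1.417 from Slfn1 and 1.257 from Slfn2. The family was picked because both genes fall and return in these libraries, so nothing is read from their closeness. After Slfn2, the genes closest to Slfn1 were Fam49a (0.368), a regulator of the actin cytoskeleton, Rasa3 (0.391), which switches off Ras-type proteins, and St8sia1 (0.394), an enzyme that adds sialic acid to glycolipids. S1pr4 (0.407), a sphingosine phosphate receptor of lymphocytes, and the adhesion protein gene Pecam1 (0.408) came next. After Slfn1, the genes closest to Slfn2 were Pon2 (0.295), a lactonase, Tubb2a (0.332), a tubulin, and Cr1l (0.333), a complement regulator. St8sia1 (0.343) and the zinc finger gene Zfp959 (0.358) completed the 6.

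Mean levels of St8sia1, named for both genes, were 118 CPM in TEPP-46 cells, 22.7 CPM in control cells and 96.2 CPM in resting cells. Rasa3 averaged 559, 108 and 754 CPM, and Pon2 76.6, 20.5 and 90.1 CPM, in TEPP-46, control and resting cells. Within the family, Slfn8 was 100th and Slfn5 378th in closeness to Slfn1, at 0.633 and 0.81, while Slfn3 (1.813) and Slfn9 (1.843) were further than the median gene. Slfn3 and Slfn9 were closer to each other (0.732) than either was to any other member, and Slfn8 lay at 0.673 from Slfn5 but at 1.517 from its close sequence relative Slfn9. The 9 libraries share their groups and depths, so these distances are a description.

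Several Schlafen genes are known targets of type I interferon, and other genes of that response were therefore set beside them. Of 33 interferon response genes listed, 32 were tested. By edgeR's adjusted p, 10 rose and 0 fell in TEPP-46 over control cells, beside 9.72% higher and 6.43% lower of all genes. Their median log2 fold change was 1.04 against 0.04 over all genes. At an unadjusted p under 0.05, 14 were higher and 1 lower, and DESeq2 called 12 higher and 1 lower, limma-voom 8 and 0. Samhd1, an enzyme that breaks down deoxynucleotides, averaged 2840 ± 184 CPM in TEPP-46 cells and 686 ± 117 CPM in control cells (2.05 ± 0.22, adjusted p = 0.0013). In resting cells Samhd1 averaged 499 ± 50.3 CPM, so it was not lower in control than in resting cells, unlike Slfn1 and Slfn2. Adar, an RNA-editing enzyme, averaged 167 ± 10.7 and 79.1 ± 1.41 CPM in TEPP-46 and control cells (1.08 ± 0.19, adjusted p = 0.00689). Ifit2, which encodes an RNA-binding inhibitor of viral translation, averaged 58.2 ± 10.6 and 24.2 ± 1 CPM (1.27 ± 0.23, adjusted p = 0.00842). Parp14 averaged 101 ± 26.5 and 36.4 ± 9.02 CPM (1.48 ± 0.27, adjusted p = 0.00881). The nucleic acid sensor Zbp1 averaged 253 ± 70.2 and 49.6 ± 6.08 CPM (2.35 ± 0.48, adjusted p = 0.0126). Other listed genes lay below 0 and did not pass, among them Oasl1 (-2.615 ± 0.855, adjusted p = 0.0611), Isg15 (-1.05 ± 0.90, 0.433) and Ifit1 (-0.05 ± 0.78, 0.971).

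Single libraries moved the count of interferon response genes called in TEPP-46 over control cells. It was 16 higher and 0 lower without resting replicate 1, 9 higher and 5 lower without TEPP-46 replicate 1, and 4, 3 and 2 higher without control replicates 1, 4 and 5. Calls over all genes moved too, from 1219 higher and 806 lower to 2274 and 2133 without TEPP-46 replicate 1. Without control replicates 1, 4 and 5, 367, 360 and 258 of all genes were called higher. Among the named genes, the call of Zbp1 was lost without each control library (adjusted p up to 0.0679), that of Parp14 without control replicates 4 and 5 (0.051 and 0.0551), and that of Ifit2 without control replicate 5 (0.0503).

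Between control and resting cells, 7 of the 32 interferon response genes fell in control cells and 1 rose, beside 15.8% lower and 15.5% higher of all genes. The median was -0.27 against -0.04 over all genes. Ifit3 averaged 1.8 ± 1.25 CPM in control cells and 25.2 ± 15.4 CPM in resting cells (-3.78 ± 0.80, edgeR adjusted p = 0.0062), and Rtp4 averaged 4.35 ± 1.82 and 43 ± 27 CPM (-3.30 ± 0.64, adjusted p = 0.00423). Ifit2 (-1.38 ± 0.23, adjusted p = 0.0021) and Ddx58, an RNA sensor (-1.68 ± 0.28, adjusted p = 0.00211), fell too, whereas Eif2ak2, a kinase that halts translation, rose (1.69 ± 0.39, adjusted p = 0.00967). The number that fell was 12 without resting replicate 1 and 4 without resting replicate 4. Over all genes, leaving out single libraries gave 1090 to 2631 called lower, against 1976 in all libraries. Without resting replicate 1 and TEPP-46 replicate 4 together, 16 of 33 tested rose in TEPP-46 over control cells and 15 fell in control over resting cells. For TEPP-46 over resting cells 5 rose, Samhd1 among them, and 0 fell (7 and 2 at an unadjusted p under 0.05, 5 and 2 by DESeq2, 4 and 0 by limma-voom). Of all genes, 6.37% were called higher and 3.92% lower there. The number that rose was 1 without resting replicate 1, 4 or 5 or control replicate 4 or 5, 2 without control replicate 1, and 3 without TEPP-46 replicate 1, where 3 fell. Over all genes, 273 and 270 were called higher without resting replicates 4 and 5, against 798 in all libraries. Without TEPP-46 replicate 1, 1081 of all genes were called higher and 816 lower.

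**Figure D5:**
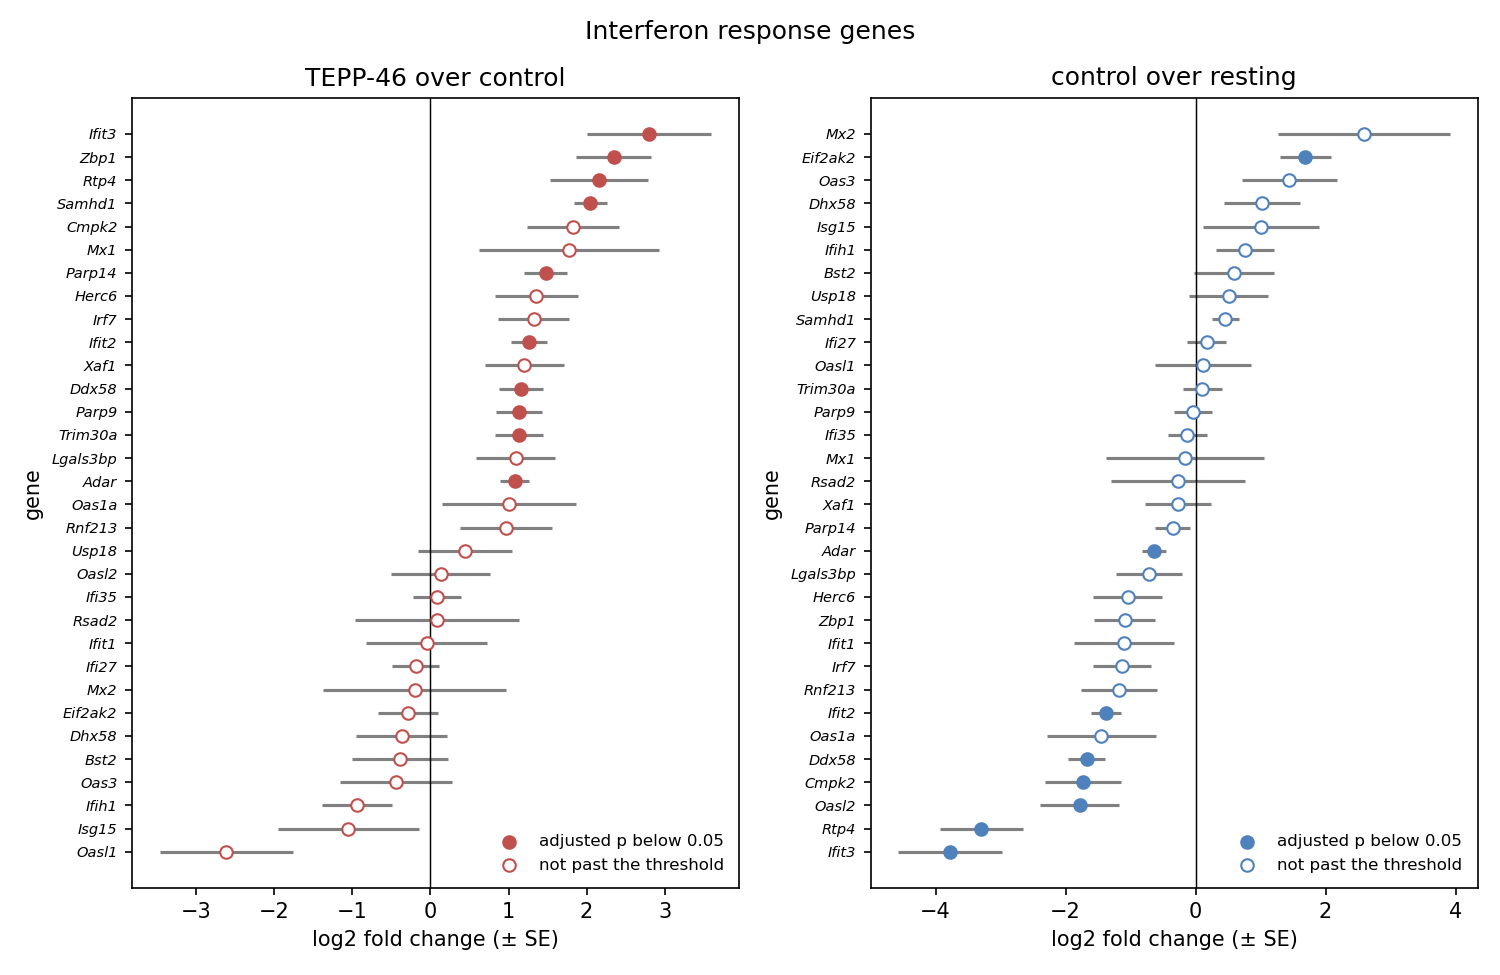
Log2 fold changes with SE of the 32 interferon response genes tested, for TEPP-46 over control (left) and control over resting cells (right), each panel sorted by its own values, with filled points for adjusted p below 0.05. On the left 10 genes are filled, all above 0, and on the right 7 filled genes lie below 0 and 1, Eif2ak2, above.

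Of the 15 genes of interferon receptors and their signalling, 8 rose and 0 fell in TEPP-46 over control cells (median log2 fold change 0.89). The shares of all genes were 9.72% higher and 6.43% lower. Ifnar1, a chain of the type I interferon receptor, averaged 548 ± 85.1 CPM in TEPP-46 cells and 187 ± 19.4 CPM in control cells (1.55 ± 0.20, edgeR adjusted p = 0.00233). The kinase gene Jak1 averaged 1740 ± 465 and 545 ± 40.5 CPM in TEPP-46 and control cells (1.67 ± 0.25, adjusted p = 0.00384). Irf9, a DNA-binding factor of the type I interferon response (1.49 ± 0.19, adjusted p = 0.00233), and Irf1 (1.65 ± 0.27, adjusted p = 0.00516) rose as well. At an unadjusted p under 0.05 there were 10 higher and 0 lower, by DESeq2 9 and 0, and by limma-voom 8 and 0. The number that rose was 5 without control replicate 1 or 5, where 367 and 258 of all genes were called higher, against 1219 in all libraries.

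In control over resting cells 4 of these 15 rose and 5 fell, beside 15.5% higher and 15.8% lower of all genes. Jak1 (-1.92 ± 0.25, edgeR adjusted p = 0.000819), Irf9 (-1.21 ± 0.19, adjusted p = 0.00156) and Irf1 (-1.09 ± 0.26, adjusted p = 0.0108) fell, while Irf8, at 524 ± 70.5 CPM in control cells and 33.4 ± 10.9 CPM in resting cells (3.97 ± 0.62, adjusted p = 0.00164), and Stat2 (0.88 ± 0.25, adjusted p = 0.0234) rose. The call of Irf1 was lost without control replicate 4 (0.0562) or 5 (0.0505), and that of Stat2 when resting replicate 4, resting replicate 5 or a control library was left out (up to 0.0871). The number that rose was 1 without resting replicate 4 or 5 or control replicate 1 or 4, and 2 without control replicate 5. The number that fell was 3 without control replicate 1 or 4 and 2 without control replicate 5. Over all genes, leaving out single libraries gave 1226 to 2563 higher and 1090 to 2631 lower, against 1938 and 1976 in all libraries. TEPP-46 over resting cells gave 6 that rose and 0 that fell, beside 6.37% higher and 3.92% lower of all genes. There were 7 and 1 at an unadjusted p under 0.05, 7 and 0 by DESeq2, and 6 and 0 by limma-voom. By edgeR, 3 rose without resting replicate 4 and 2 without resting replicate 5. There 273 and 270 of all genes were called higher, against 798 in all libraries.

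Slfn2 is known for its part in T cell quiescence, and 26 other genes known from quiescent or naive T cells were listed for that. In TEPP-46 over control cells 9 of them rose and 1 fell (median 0.71), beside 9.72% higher and 6.43% lower of all genes (median 0.04). In control over resting cells 13 fell and 2 rose (median -1.29), beside 15.8% lower and 15.5% higher of all genes (median -0.04). The 1 that fell with TEPP-46 was Klf4 (-2.03 ± 0.51, edgeR adjusted p = 0.0263). The 2 that rose in control over resting cells were Bcl2 (2.02 ± 0.50, edgeR adjusted p = 0.0127) and Foxp4 (1.41 ± 0.31, 0.00702). S1pr1, the receptor by which T cells leave lymphoid organs, averaged 563 ± 280 CPM in TEPP-46 cells and 38.1 ± 16.8 CPM in control cells (3.88 ± 0.48, edgeR adjusted p = 0.00209). The antiproliferative gene Btg2 (2.44 ± 0.33, adjusted p = 0.00277) and Tcf7, a transcription factor of naive T cells (2.30 ± 0.33, adjusted p = 0.00315), rose too. The same was found for Klf3 (1.64 ± 0.26, adjusted p = 0.00466).

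For control over resting cells, S1pr1 averaged 38.1 ± 16.8 CPM in control cells and 1570 ± 293 CPM in resting cells (-5.37 ± 0.51, edgeR adjusted p = 0.00019). Klf3 (-2.76 ± 0.27, adjusted p = 0.000196), Klf6 (-2.52 ± 0.27, adjusted p = 0.000278), Btg2 (-2.52 ± 0.33, adjusted p = 0.00087) and the interleukin 7 receptor gene Il7r (-2.45 ± 0.35, adjusted p = 0.00111) fell. Klf6 was at 210 ± 16.8 CPM in TEPP-46 cells and 287 ± 103 CPM in control cells (-0.45 ± 0.25, adjusted p = 0.236). For TEPP-46 over resting cells 2 of the 26 rose and 5 fell, beside 6.37% higher and 3.92% lower of all genes. Those that rose were Bach2 and Foxp4, and those that fell were Klf3, Klf4, Klf6, Tob1 and Tob2. Klf3 averaged 147 ± 32.9 CPM in TEPP-46 cells and 319 ± 36.8 CPM in resting cells (edgeR adjusted p = 0.0218). S1pr1 was at -1.485 ± 0.43 and did not pass (edgeR adjusted p = 0.0534). However, 0 rose without resting replicate 4 or 5 and 1 without resting replicate 1, any control library or TEPP-46 replicate 4. The number that fell was 3 without resting replicate 5, a control library or TEPP-46 replicate 1, and 2 without resting replicate 4 or TEPP-46 replicate 5. Over all genes, leaving out single libraries gave 270 to 1081 higher and 156 to 816 lower there, against 798 and 491. The number that rose in TEPP-46 over control cells was 5 without control replicate 1 or 5, and the 1 that fell was 0 without any 1 control library or TEPP-46 replicate 5 and 2 without resting replicate 1. For that comparison the ranges over all genes were 258 to 2274 higher and 137 to 2133 lower, against 1219 and 806.

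Because mouse Slfn2 binds transfer RNAs, 6 genes of transfer RNA modification, of RNA cutting or of its inhibition were listed, of which 5 were tested. Nsun2, a methylase that protects transfer RNAs from cleavage, averaged 122 ± 27.5 CPM in TEPP-46 cells and 322 ± 16.8 CPM in control cells (-1.40 ± 0.24, edgeR adjusted p = 0.00616). Rnaset2a, a ribonuclease, rose in TEPP-46 over control cells (1.07 ± 0.26, adjusted p = 0.0225), a call lost without any 1 control library or TEPP-46 replicate 5 (up to 0.1). Its near-identical copy Rnaset2b was at 0.77 ± 0.27 (adjusted p = 0.0761, or 0.0172 without TEPP-46 replicate 4), and reads of the pair could be split, so both counts are uncertain. Trdmt1, a further methylase (1.04 ± 0.58, adjusted p = 0.226), and the ribonuclease inhibitor Rnh1 (-0.17 ± 0.20, adjusted p = 0.58) did not pass.

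Rnh1 rose in control over resting cells (1.16 ± 0.20, edgeR adjusted p = 0.00241) and 0 fell, beside 15.5% higher and 15.8% lower of all genes. At an unadjusted p under 0.05, 2 were higher and 1 lower. The other 4 did not pass by edgeR, with Nsun2 at 0.65 ± 0.23 (adjusted p = 0.0531), Rnaset2a at -0.65 ± 0.26 (0.0766), Rnaset2b at -0.43 ± 0.27 (0.244) and Trdmt1 at -0.15 ± 0.58 (0.861). Nsun2 passed under 8 of 19 alternatives, with adjusted p = 0.0269 by DESeq2, 0.0394 by limma-voom, 0.019 with only the groups compared, 0.0438, 0.0433 and 0.0256 with RLE factors, upper quartile factors and library totals, and 0.0213 and 0.0388 without TEPP-46 replicates 1 and 4, and reached 0.153 at the other end. Rnaset2a passed under 3, with 0.0264 with only the groups compared, 0.0282 without TEPP-46 replicate 4 and 0.0184 without resting replicate 1 and TEPP-46 replicate 4. For TEPP-46 over resting cells 1 rose and 0 fell by edgeR, beside 6.37% higher and 3.92% lower of all genes, with 1 and 1 at an unadjusted p under 0.05.

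Summed markers of B cells, myeloid cells, neutrophils and natural killer cells were, like the abundant Schlafen genes, lowest in control cells, while CD8 markers were not. The T cell markers were lowest in control cells by their mean too, at 10100, 6010 and 8650 CPM in TEPP-46, control and resting cells. The same held for platelet and red cell markers, at 133, 3.46 and 8.58 CPM. For both of these lists the control and resting ranges overlapped. The 15 B cell markers summed to 773 to 1400 CPM in TEPP-46 cells, 243 to 270 CPM in control cells and 2620 to 4000 CPM in resting cells, with Ighm highest and Cr2 and Blk at 0 in control cells. The 15 myeloid markers summed to 64.9 to 122, 23.5 to 41.5 and 75.2 to 125 CPM in the same order, with Siglech at 0 in TEPP-46 cells, and Adgre1, Itgax, Clec9a, Siglech and Tyrobp at 0 in control cells. The 10 neutrophil markers summed to 1.38, 140 and 4.21 CPM in TEPP-46 replicates 1, 4 and 5, to 0 to 1.26 CPM in control cells and to 105 to 167 CPM in resting cells, so that replicate 4 alone reached the resting level, with Mpo highest in TEPP-46 and resting cells, S100a8, Csf3r, Cxcr2, Retnlg and Camp at 0 in both activated groups, S100a9, Mpo and Elane also at 0 in control cells, and Ly6g at 0 in resting cells.

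The 8 natural killer cell markers summed to 33.6 to 79.2 CPM in TEPP-46 cells, 9.83 to 18.2 CPM in control cells and 32.2 to 112 CPM in resting cells, with Klra8 at 0 in every group, Klrb1c also in TEPP-46 cells, and Ncr1 and Klre1 also in control cells. The 11 platelet and red cell markers summed to 17.1, 292 and 89.6 CPM in TEPP-46 replicates 1, 4 and 5, to 1.44 to 4.91 CPM in control cells and to 4.33 to 14.8 CPM in resting cells, with Pf4 highest in TEPP-46 cells and at 0 in control cells. The CD8 markers summed to 3.88 to 11.3, 8.07 to 10.1 and 9.05 to 22.2 CPM. The nuclear RNA Malat1 stood at 2530 to 12800, 2070 to 4120 and 4370 to 8380 CPM, and at 2530 CPM in TEPP-46 replicate 1 it lay within the control range. Ribosomal protein genes summed to 35500, 8535 and 17560 CPM in TEPP-46 replicates 1, 4 and 5. Their sum was 22510 to 29120 CPM in control cells and 15980 to 22440 CPM in resting cells. The part of these cells or of RNA quality in the levels of the Schlafen genes was not tested. In bulk RNA, fewer cells of a type and less RNA per cell cannot be told apart.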

How the data were processed

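RNA was sequenced from 9 libraries of mouse CD4+ T cells. The authors deposited raw counts per gene, as whole numbers without normalization. GRCm38 and DESeq2 are named per the submitters' processing notes, whereas aligner, counting program, strandedness and annotation version are not stated in the sources used. Symbols came from GENCODE M21 for 47224 of 47937 identifiers, and 713 had none. Genes were filtered by group with filterByExpr (minimum count 10, minimum total 15), scaled by TMM and fitted over all 9 libraries with edgeR 4.0.16 (glmQLFit and glmQLFTest, two-sided, R 4.3.3), with Benjamini-Hochberg adjustment over 12536 genes and a threshold of 0.05. SE is the log2 fold change divided by the square root of F. CPM used TMM-scaled library sizes. In data simulated for TEPP-46 over control cells on 12274 genes, 63% of 4-fold and 5% of 2-fold changes were recovered. Only 100 genes were changed by each factor, none of them rare, and all others were kept equal. In the real libraries 2025 genes were called, so recovery there can differ, and it was not measured for rare genes such as Slfn3.

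The members and gene lists were chosen with earlier results of these data known. Named were all members, the other Schlafen symbols, the 6 genes closest to Slfn1 and to Slfn2 and, from each of 4 lists, up to 5 genes in order of adjusted p in the first 2 comparisons; some genes that this rule names are not reported here. Alternatives were DESeq2 1.42.0, limma-voom (limma 3.58.1), other scaling factors, other filters, only the groups compared, a replicate block, and leaving out each library. Coding parts were aligned with MAFFT 7.526.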

Additional observations from a re-analysis of the deposited data

How the results depend on the processing

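Of 1159 values for single genes, 1094 kept their direction and side of the threshold, or moved by less than the spread, 35 lost a call, 21 gained one, 2 moved further and 7 changed sign. Sign changes, all of values not called, were -0.008 for Slfn9 in TEPP-46 over control cells with library totals only, and -0.143 for Slfn8 in TEPP-46 over resting cells without resting replicate 1 and TEPP-46 replicate 4. Leaving out single libraries also changed the sign of Slfn9 (-0.396 to 0.385, negative without TEPP-46 replicate 1) and Slfn3 (-0.471 to 0.029, positive without control replicate 1 and, at 0.003, without TEPP-46 replicate 5) in TEPP-46 over control cells, and of Trdmt1 in control over resting cells (-0.589 to 0.176, positive without resting replicate 5 and, at 0.1, without control replicate 4). The cause was not tested. Leaving out each library in turn, TEPP-46 over control cells gave 395 to 4407 genes called (258 to 2274 higher, 137 to 2133 lower), lowest without control replicate 5 and highest without TEPP-46 replicate 1, against 2025 in all libraries. Control over resting cells gave 2316 to 5194 (1226 to 2563 higher, 1090 to 2631 lower) against 3914, and TEPP-46 over resting cells 426 to 1897 (270 to 1081 higher, 156 to 816 lower) against 1289. TEPP-46 over resting cells gave 2091 with DESeq2 (1205 higher, 886 lower), 400 with only these groups (246 and 154), and 1938 without resting replicate 1 and TEPP-46 replicate 4 (836 lower). DESeq2 called 1364 genes lower in TEPP-46 over control cells. With the replicate number as a block, the counts were 1384, 3339 and 705 (456 higher, 249 lower) in the same order of comparisons, 6 interferon response genes rose in TEPP-46 over control cells, and Rnaset2a (adjusted p = 0.0519) and Slfn10-ps (0.0509) lost a call. Deviations of same-numbered libraries from their group means correlated at -0.123 to 0.089. Libraries with different numbers were not compared in this way, so whether same-numbered libraries share an animal or a batch cannot be told. Slfn3, Slfn5 and Slfn9 had under 10 CPM on average in at least 1 group, where depth limits the precision.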
